A study of Homo sapiens with 9 samples.

Results

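The EGFR family consists of receptor tyrosine kinases and the growth factors that bind them, and 9 of its genes were followed here by name: the receptors EGFR, ERBB2 and ERBB3 and the ligands AREG, EREG, HBEGF, TGFA, BTC and EPGN. They are 9 of the 56823 annotated genes to which reads were summed, and 8 of them were among the 19658 genes with enough reads to test. The libraries were total RNA, depleted of ribosomal RNA, from H1975, an established cell line of human lung cancer of the non-small cell type, whose EGFR gene is mutated so that the receptor is active. All cells carried dCas9-KRAB, a repressor without cutting activity, under a doxycycline-inducible promoter, were grown under G418 and puromycin, and received 4 ug/ml doxycycline for 72 h. The groups were gRNA2 and gRNA1, which are guides against the long noncoding RNA TRIDENT, and control, a non-targeting guide, with 3 libraries each. Whether the cells of a group are a clone or a pool is not given in the sources used here.

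The receptors sit in the plasma membrane and signal as pairs. ERBB2 binds no known ligand and ERBB3 has little kinase activity of its own, so each depends on a partner. The ligands are made as membrane-anchored precursors that proteases such as ADAM17 release, and in epithelial cells they act on the cell that made them and on its neighbours. Signal passes through adaptor proteins to the RAS-ERK and PI3K-AKT pathways, whose target genes include both ligands and feedback inhibitors. In lung adenocarcinoma, EGFR is best known as a target of kinase inhibitors.

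Libraries held 16918432 to 26466536 reads. The labels do not say whether the 3 libraries of a group came from separate cultures, so p-values measure the spread between these libraries. TRIDENT, matched to the gene that RefSeq lists as TRIDDENT, averaged 2.44 ± 0.132 CPM with gRNA2, 1.91 ± 0.163 CPM with gRNA1 and 2.58 ± 0.287 CPM in control (SD, n = 3 each; CPM scales reads to a common library size). The reads are those of the annotated gene LINC02861, at positions 3931217 to 3950586, whereas RefSeq places TRIDDENT at 3947609 to 3950444. With gRNA2 the gene was 0.945-fold (interval 0.753 to 1.19, unadjusted p = 0.611, adjusted p = 0.81 by edgeR). With gRNA1 it was 0.745-fold (interval 0.588 to 0.943, unadjusted p = 0.0181, adjusted p = 0.128). The gRNA2 libraries overlapped control, whereas all gRNA1 libraries lay below all controls. No change in the target passed the adjusted test, and the guides are named as labelled. The 6 epithelial markers summed to 2038 to 2056 TPM (a level that also corrects for transcript length) with gRNA2, 1950 to 2052 TPM with gRNA1 and 1995 to 2103 TPM in control. KRT19 fell to 0.817-fold with gRNA2 (adjusted p = 0.00187) and KRT8 to 0.875-fold with gRNA2 (adjusted p = 0.0217), and CDH1 fell to 0.927-fold with gRNA1 (adjusted p = 0.0413). The KRT8 call ended in 6 of 17 alternatives and the CDH1 call in 13 of 17, with adjusted p up to 0.118 for KRT8 and 0.587 for CDH1. Of the lung markers, NKX2-1 averaged 54.7 ± 2.42 CPM with gRNA2, 63.6 ± 4.16 CPM with gRNA1 and 58.8 ± 1.98 CPM in control. It was lower with gRNA2 than with gRNA1 (0.861-fold, adjusted p = 0.0264), a call that ended in 6 of 17 alternatives, among them without gRNA1 replicate 1 (0.0553) or 3 (0.1002), or gRNA2 replicate 2 (0.125) or 3 (0.0739). NAPSA, a protease of alveolar cells, had 3.76 ± 0.462 CPM with gRNA2, 3.57 ± 0.277 CPM with gRNA1 and 2.57 ± 0.178 CPM in control. It rose 1.46-fold with gRNA2 (adjusted p = 0.0286), and the call ended in 8 of 17 alternatives, among them without any 1 control (0.0591, 0.109 and 0.0728 without replicates 1, 2 and 3) or gRNA2 replicate 1 (0.0866) or 3 (0.0658). SCGB1A1 had no reads and SFTPC was at or near 0. The 10 markers of blood, endothelial and stromal cells summed to 63.5 to 70.2 TPM with gRNA2, 57.4 to 60.6 TPM with gRNA1 and 55.7 to 62.6 TPM in control. CD68 made up most of that sum, and CD3E, PECAM1, VWF, COL1A2 and PDGFRB stayed under 1 TPM, but CD79A rose 1.57-fold with gRNA2 (adjusted p = 0.00954) and 1.46-fold with gRNA1 (adjusted p = 0.029). The CD79A call ended in 6 of 17 alternatives with gRNA1 and in 1 with gRNA2, with adjusted p up to 0.179 and 0.201. The part of these marker levels in the results was not tested.

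Of the family genes that passed the test, the ligands EREG and AREG, neighbours on chromosome 4, changed most. EREG (epiregulin), a ligand of EGFR and ERBB4, rose with both guides, 1.83-fold with gRNA2 and 1.38-fold with gRNA1. AREG (amphiregulin), a ligand of EGFR, rose 1.35-fold with gRNA2 but fell to 0.815-fold with gRNA1. The receptors moved little: EGFR fell to 0.920-fold with gRNA1, and no receptor passed the test with gRNA2. TGFA, another ligand of EGFR, fell to 0.858-fold with gRNA1. In bulk RNA, fewer cells with a transcript and less of it per cell cannot be told apart.

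Against the same controls, 2 of the 8 tested genes passed an adjusted p of 0.05 with gRNA2, where 8.44% of all tested genes did, and 4 of 8 passed with gRNA1, where 7.08% of all tested genes did. Between gRNA2 and gRNA1 3 of 8 passed, beside 6.22% of all genes. With gRNA2 the 2 genes were higher than control and 0 were lower, where 3.69% of all genes were higher and 4.75% lower. With gRNA1 1 was higher and 3 were lower, where 3.49% of all genes were higher and 3.58% lower. The 3 that differed between the guides were all higher with gRNA2, as were 3.12% of all genes, and 3.1% were lower. Among the 10759 genes whose average log2 CPM reached 3, as 7 of the 8 family genes did, the shares called were 13.5% for gRNA2 versus control, 10.4% for gRNA1 versus control and 10.1% for gRNA2 versus gRNA1. The median log2 fold change over the 8 genes was 0.11 with gRNA2, -0.11 with gRNA1 and 0.15 for gRNA2 versus gRNA1, beside medians of all tested genes of 0.01, 0.00 and 0.00.

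**Figure D1:**
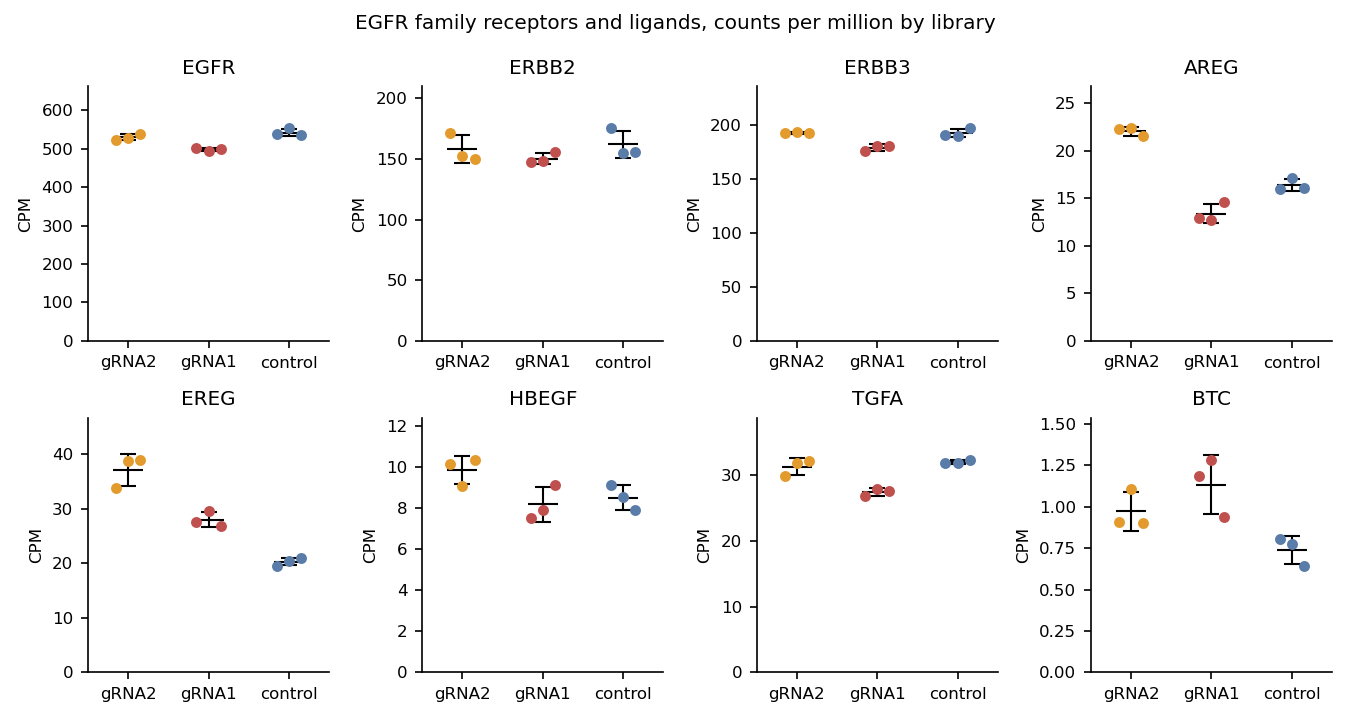
CPM (vertical axes, from 0) of 8 EGFR family genes in each of the 9 libraries, by group; points are libraries and bars are the mean ± SD. EREG stood at 37.1 CPM with gRNA2, 28.0 CPM with gRNA1 and 20.3 CPM in control, with no overlap between groups, and AREG was highest with gRNA2 and lowest with gRNA1.

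EREG and AREG share a stretch of chromosome 4 (hg38) with EPGN and BTC. EPGN lies at positions 74308473 to 74315307, EREG at 74365143 to 74388751 and AREG at 74445134 to 74455009, all on the plus strand, and BTC lies at 74744759 to 74794686 on the minus strand. The 250 bases before the RefSeq start (build GRCh38.p14) of EREG and AREG are shown because these are the neighbouring genes that passed the test with both guides. Capitals mark a TATAAA match in each, the letters of a TATA box, and also a CATTCC match in EREG, the core of a TEAD site, and a TGACGTCA match in AREG, the palindromic cAMP response element.
EREG promoter, chr4:74364895-74365144, plus strand: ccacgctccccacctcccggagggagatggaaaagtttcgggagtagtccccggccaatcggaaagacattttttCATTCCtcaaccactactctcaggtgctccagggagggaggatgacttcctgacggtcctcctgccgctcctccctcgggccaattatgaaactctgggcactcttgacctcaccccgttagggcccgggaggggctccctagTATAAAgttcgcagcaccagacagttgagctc
AREG promoter, chr4:74444886-74445135, plus strand: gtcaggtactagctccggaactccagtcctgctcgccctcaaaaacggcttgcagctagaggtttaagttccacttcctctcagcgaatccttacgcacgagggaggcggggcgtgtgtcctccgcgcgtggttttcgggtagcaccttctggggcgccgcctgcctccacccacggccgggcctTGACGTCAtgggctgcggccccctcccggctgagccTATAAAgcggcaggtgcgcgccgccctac

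Each promoter had TATAAA, which began 32 bases before the start in EREG and 29 bases before it in AREG. The TGACGTCA of AREG began 65 bases before the start, and the CATTCC of EREG 175 bases before it. Of the 8 family promoters in the RefSeq table, AREG alone held TGACGTCA and EREG alone held CATTCC, while TATAAA was also found in EPGN. The letters TGANTCA, the AP-1 site, occurred only in ERBB2, and GGGCGG, the GC box, in EGFR, AREG, HBEGF and TGFA. Among 27305 promoters of the same length, searched on both strands, 1.77% held TGACGTCA, 11.9% CATTCC, 11.1% TATAAA, 6.60% TGANTCA and 42.3% GGGCGG. The 5 motifs do not overlap one another in EREG or AREG. ERBB3 is named only.

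EREG had 33.7, 38.7 and 38.9 CPM in the gRNA2 libraries, 27.6, 29.5 and 26.9 CPM in the gRNA1 libraries and 19.6, 20.3 and 20.9 CPM in the control libraries, on 366 to 1014 reads. All gRNA2 libraries lay above all gRNA1 libraries, which lay above all controls. EREG averaged 37.1 ± 2.93 CPM with gRNA2, 28.0 ± 1.35 CPM with gRNA1 and 20.3 ± 0.649 CPM in control (SD, n = 3 each). Its fold was 1.83 with gRNA2 (95% interval 1.66 to 2.02, adjusted p = 5.3e-06) and 1.38 with gRNA1 (1.25 to 1.53, adjusted p = 0.00101) by edgeR's quasi-likelihood test with Benjamini-Hochberg adjustment. Between the guides it was 1.32-fold higher with gRNA2 (1.20 to 1.46, adjusted p = 0.00179). That difference between guides did not pass when an offset for transcript length was used (1.20-fold, adjusted p = 0.23). Of all tested genes, 290, or 1.48%, rose with both guides. The full-length transcript EREG-201 held 92.1% of the gene's reads and stood at 34.5 ± 2.43 CPM with gRNA2, 25.6 ± 1.60 CPM with gRNA1 and 18.5 ± 0.747 CPM in control. Of the 31-base stretches of EREG, 5.74% also occur in transcripts of other genes.

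AREG had 22.3, 22.3 and 21.5 CPM in the gRNA2 libraries, 12.9, 12.7 and 14.6 CPM in the gRNA1 libraries and 15.9, 17.1 and 16.1 CPM in the control libraries, on 262 to 585 reads. The gRNA2 libraries all lay above the controls and the gRNA1 libraries all below them. AREG averaged 22.0 ± 0.475 CPM with gRNA2, 13.4 ± 1.03 CPM with gRNA1 and 16.4 ± 0.634 CPM in control. Its fold was 1.35 with gRNA2 (1.22 to 1.49, adjusted p = 0.00158) and 0.815 with gRNA1 (0.733 to 0.906, adjusted p = 0.0234). Between the guides AREG was 1.65-fold higher with gRNA2 (1.49 to 1.83, adjusted p = 3.51e-05), the largest of the 8 genes tested. Of all tested genes, 23, or 0.117%, were lower with gRNA1 and higher with gRNA2. The gRNA1 call ended without control replicate 2 (0.838-fold, adjusted p = 0.103), control replicate 3 (0.809-fold, adjusted p = 0.0627), gRNA1 replicate 1 (0.827-fold, adjusted p = 0.0869) or gRNA1 replicate 2 (0.839-fold, adjusted p = 0.111). It also ended with a transcript length offset (adjusted p = 0.0715) and with protein-coding transcripts alone (adjusted p = 0.0747). AREG-201 held 96.0% of the gene's reads. AREG-203, a retained-intron transcript, was at 0.788 CPM with gRNA2, 0.299 CPM with gRNA1 and 0.465 CPM in control.

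TGFA (transforming growth factor alpha), a ligand of EGFR encoded on chromosome 2 at positions 70447280 to 70554193, had 29.7, 31.8 and 32.1 CPM in the gRNA2 libraries, 26.8, 27.9 and 27.5 CPM in the gRNA1 libraries and 31.8, 31.8 and 32.2 CPM in the control libraries. The gRNA1 libraries lay below all others, and gRNA2 and control overlapped. The gene was 0.858-fold with gRNA1 (0.795 to 0.926, adjusted p = 0.0193) and 0.977-fold with gRNA2 (0.906 to 1.05, adjusted p = 0.747). Between the guides it was 1.14-fold higher with gRNA2 (1.05 to 1.23, adjusted p = 0.046). The gRNA1 call against control ended in 7 of 17 alternatives, among them leaving out any 1 control (adjusted p = 0.0557, 0.0727 and 0.0825 without replicates 1, 2 and 3) or gRNA1 replicate 1 (0.079) or 2 (0.0663), and the call between guides ended in 15 of 17, with the replicate block at adjusted p = 0.0561.

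HBEGF (heparin-binding EGF-like growth factor), a ligand of EGFR and ERBB4 on chromosome 5 at positions 140332843 to 140346631, had 10.2, 9.09 and 10.3 CPM in the gRNA2 libraries, 7.49, 7.90 and 9.11 CPM in the gRNA1 libraries and 9.10, 8.51 and 7.91 CPM in the control libraries. The groups overlapped, and HBEGF passed in no comparison. Its fold was 1.16 with gRNA2 (1.00 to 1.33, adjusted p = 0.209) and 0.961 with gRNA1 (0.830 to 1.11, adjusted p = 0.789). It was 1.20 for gRNA2 versus gRNA1 (1.04 to 1.39, adjusted p = 0.135).

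BTC (betacellulin), a ligand of EGFR and ERBB4, was sparse, with 22, 29 and 15 reads with gRNA2, 24, 30 and 19 reads with gRNA1 and 15, 19 and 14 reads in control. All libraries of both guides lay above the controls in CPM. Its fold was 1.32 with gRNA2 (0.915 to 1.91, adjusted p = 0.361) and 1.54 with gRNA1 (1.07 to 2.21, adjusted p = 0.15), and neither passed. EPGN (epigen), a ligand of EGFR, had 0 or 1 read in each library and was not tested. Libraries of the groups did not overlap for 3 of 8 genes with gRNA2 against control (27.4% of all genes), 6 of 8 with gRNA1 against control (28.1%) and 5 of 8 between the guides (23.8%).

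The 4 ligand genes of chromosome 4 span 486 kb, with gaps of 49.8 kb between EPGN and EREG, 56.4 kb between EREG and AREG and 289.75 kb between AREG and BTC. Within 0.5 Mb of that span were 26 other annotated genes, of which 2 had enough reads to test, and neither passed in any of the 3 comparisons by edgeR. DESeq2 gave an adjusted p for 1 of them, MTHFD2L, and called it in 0 comparisons. At an unadjusted p under 0.05, 2 were higher with gRNA2 than in control, 2 were higher with gRNA1 than in control, and 0 differed between the guides. CXCL2, a chemokine, had 0.832 ± 0.142 CPM with gRNA2, 0.80 ± 0.118 CPM with gRNA1 and 0.508 ± 0.0420 CPM in control (adjusted p = 0.13 for gRNA2 and 0.206 for gRNA1 against control). MTHFD2L, a mitochondrial folate enzyme, had 9.87 ± 0.149 CPM with gRNA2, 10.2 ± 1.08 CPM with gRNA1 and 8.20 ± 0.587 CPM in control (adjusted p = 0.101 and 0.0536).

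By TPM summed over all transcripts of a gene, the receptors were the most abundant of the 9 genes in every group. Among receptors, EGFR had 96.1 to 103 TPM with gRNA2, 77.0 to 86.2 TPM with gRNA1 and 83.0 to 96.9 TPM in control. ERBB3 followed, overlapping EGFR with gRNA1 and in control but not with gRNA2, and ERBB2 came next, overlapping ERBB3 with gRNA2 alone. The leading transcript, that with most reads, held 35.5% to 42.7% of EGFR TPM and 22.0% to 30.8% of ERBB3 TPM. With gRNA2, gRNA1 and in control it averaged 35.6, 34.5 and 35.8 TPM for EGFR. It averaged 20.6, 18.3 and 20.0 TPM for ERBB3 and 18.2, 19.5 and 20.6 TPM for ERBB2. By these means ERBB3 lay above ERBB2 with gRNA2 alone, but not in every gRNA2 library. In those libraries the leading transcript had 15.6, 16.7 and 22.5 TPM for ERBB2 and 19.6, 21.0 and 21.3 TPM for ERBB3. Another ERBB2 transcript, ERBB2-204, was given 617, 629 and 0 estimated reads in them. It had 0 reads in each gRNA1 library and 0, 161 and 0 in control. The leading ERBB2 transcript held 20.6% to 38.6% of ERBB2 TPM over the libraries. AREG was the most abundant ligand with gRNA2, at 18.2 to 18.9 TPM, and in control, at 13.0 to 14.1 TPM. With gRNA1, AREG at 10.6 to 11.5 TPM and EREG at 9.86 to 11.1 TPM overlapped as gene sums. Their leading transcripts averaged 10.4 ± 0.409 TPM (AREG-201) and 6.56 ± 0.509 TPM (EREG-201) with gRNA1. EREG lay above TGFA in every library of either guide and below it in every control library.

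Summed over the 6 ligands, TPM was 42.0, 45.2 and 46.6 in the gRNA2 libraries, 32.4, 32.8 and 33.6 in the gRNA1 libraries and 33.3, 33.3 and 31.8 in the control libraries. The gRNA2 libraries were all above the rest, whereas gRNA1 and control overlapped. EREG made up 26.4% to 31.7% of ligand TPM with gRNA2, 30.4% to 33.1% with gRNA1 and 21.6% to 23.2% in control. AREG made up 39.2% to 43.6% with gRNA2, 32.4% to 34.1% with gRNA1 and 38.8% to 42.3% in control. The TPM of EREG for each TPM of AREG was 0.606 to 0.811 with gRNA2, 0.934 to 1.01 with gRNA1 and 0.512 to 0.598 in control, with no overlap between groups. Short noncoding transcripts count in these sums, shares and ratios, and EREG-201 held 54.2% to 72.0% of EREG TPM over the libraries. EREG-201 averaged 8.72 TPM with gRNA2, 6.56 TPM with gRNA1 and 4.77 TPM in control. AREG-201 averaged 17.3 TPM with gRNA2, 10.4 TPM with gRNA1 and 12.1 TPM in control. None of these values was tested.

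**Figure D2:**
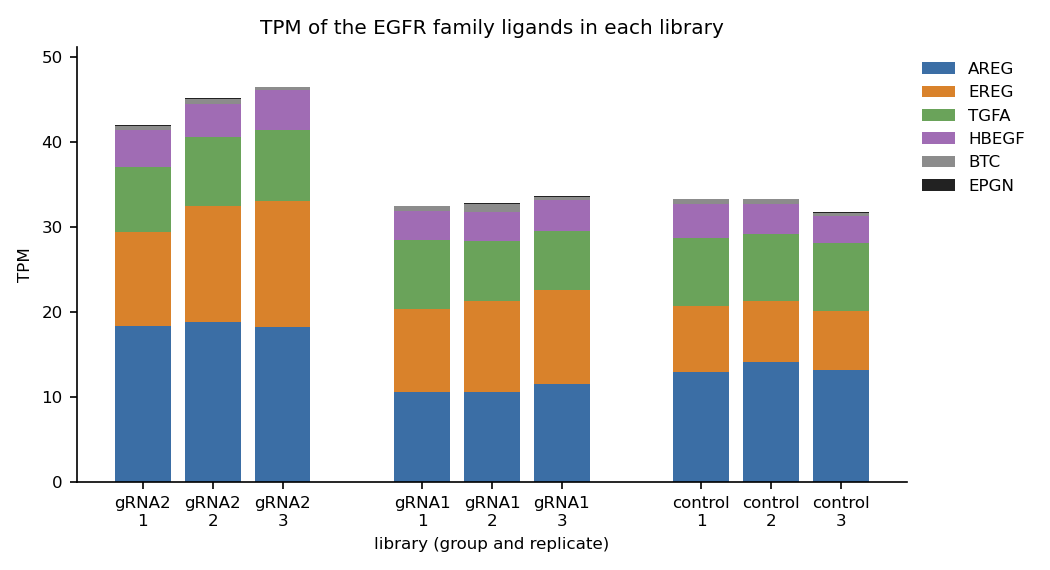
TPM (vertical axis, from 0) of the 6 ligands, stacked, in each library. The stacks reached 42.0 to 46.6 TPM with gRNA2, 32.4 to 33.6 TPM with gRNA1 and 31.8 to 33.3 TPM in control, and the AREG and EREG layers carry most of the difference between gRNA2 and the others.

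EGFR, on chromosome 7 at positions 55019021 to 55211628, had 523, 529 and 539 CPM in the gRNA2 libraries, 502, 495 and 499.6 CPM in the gRNA1 libraries and 539, 553 and 535 CPM in the control libraries, on 8972 to 13847 reads. The gRNA1 libraries lay below all others, and gRNA2 overlapped control. Its fold was 0.977 with gRNA2 (0.935 to 1.02, adjusted p = 0.548) and 0.920 with gRNA1 (0.880 to 0.961, adjusted p = 0.0254). Between the guides it was 1.06 (1.02 to 1.11, adjusted p = 0.107). The gRNA1 call ended in 9 of 17 alternatives, including protein-coding genes alone (adjusted p = 0.0575) and the removal of any 1 control (0.0671, 0.149 and 0.0625 without replicates 1, 2 and 3), gRNA1 replicate 1 (0.060) or 2 (0.135), or gRNA2 replicate 2 (0.0772).

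The difference in EGFR was spread unevenly over its annotated transcripts, which were not tested. EGFR-201, with 28 exons, held 78.1% of the reads and stood at 404 ± 4.72 CPM with gRNA2, 402 ± 3.92 CPM with gRNA1 and 421 ± 11.04 CPM in control. Its libraries lay below all controls with either guide. EGFR-211, which starts at exon 6 of EGFR-201 and so lacks the first exons, held 14.9% of the reads. It had 79.5, 86.7 and 92.6 CPM in the gRNA2 libraries, 65.3, 53.2 and 70.2 CPM in the gRNA1 libraries and 91.8, 83.4 and 82.1 CPM in the control libraries. The gRNA1 libraries were lowest, at a ratio of means of 0.733 to control, while gRNA2 overlapped control at 1.01. EGFR-204, which ends by exon 10, was at 14.7 CPM with gRNA2, 10.7 CPM with gRNA1 and 15.03 CPM in control. EGFR-203, which ends by exon 15, differed the other way, at 5.74 CPM with gRNA2, 7.22 CPM with gRNA1 and 5.28 CPM in control. Salmon splits reads that fit several transcripts, so these are estimates.

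**Figure D3:**
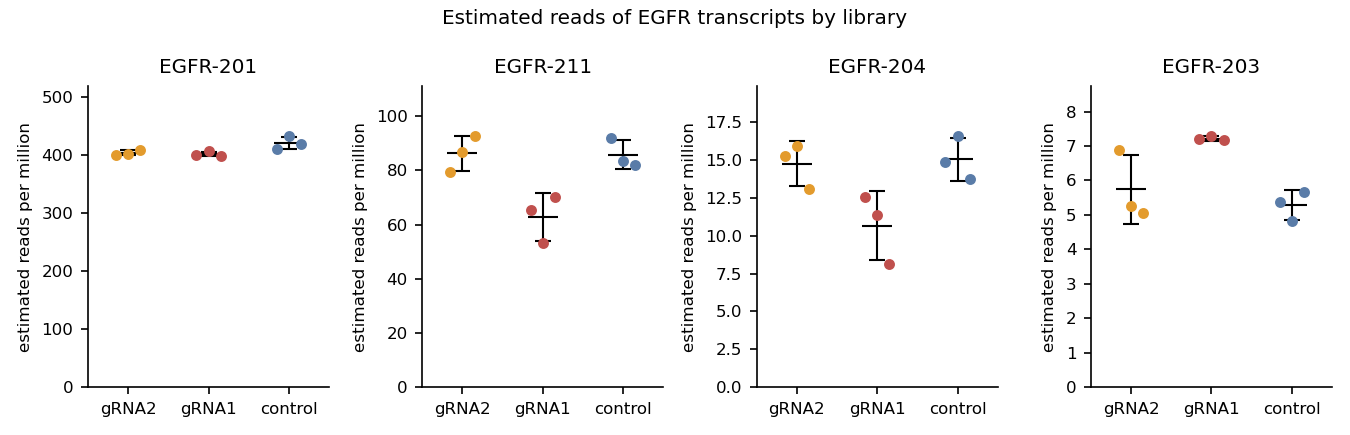
CPM of estimated reads (vertical axes, from 0) of 4 EGFR transcripts in each library, by group; points are libraries and bars are the mean ± SD. EGFR-211 stood at 86.3 with gRNA2, 62.9 with gRNA1 and 85.8 in control, and EGFR-203 was highest with gRNA1.

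ERBB2, on chromosome 17 at positions 39687914 to 39730426, had 171, 152 and 150.1 CPM in the gRNA2 libraries, 147, 148 and 156 CPM in the gRNA1 libraries and 175, 155 and 156 CPM in the control libraries. All groups overlapped in CPM, and its fold was 0.975 with gRNA2 (0.897 to 1.06, adjusted p = 0.759) and 0.928 with gRNA1 (0.853 to 1.01, adjusted p = 0.288). Summed as TPM, which was not tested, ERBB2 had 62.8 to 75.7 with gRNA2, 53.0 to 59.6 with gRNA1 and 58.5 to 60.1 in control. By that measure all gRNA2 libraries lay above all controls. Its leading transcript held 47.3% to 69.1% of the reads over the 9 libraries, and 9.19% of the gene's 31-base stretches also occur in transcripts of other genes. ERBB3, on chromosome 12 at positions 56076799 to 56103505, had 192, 193 and 192 CPM in the gRNA2 libraries, 175, 180.4 and 181 CPM in the gRNA1 libraries and 191, 189.9 and 197 CPM in the control libraries. The gRNA1 libraries lay below the rest, but its fold of 0.929 did not pass (0.884 to 0.976, adjusted p = 0.0721), and with gRNA2 the fold was 1.00 (0.952 to 1.05). DESeq2 called ERBB3 with gRNA1 (adjusted p = 0.0416) and EGFR between the guides (adjusted p = 0.0479). With a transcript length offset EGFR was also called between the guides, 1.17-fold higher with gRNA2 (adjusted p = 0.0232). A gene on the same strand overlaps ERBB3 and had 101 to 388 reads. Genes on the opposite strand overlap ERBB2, with 220 to 358 and 80 to 137 reads, and the strand setting of the libraries is not stated.

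**Figure D4:**
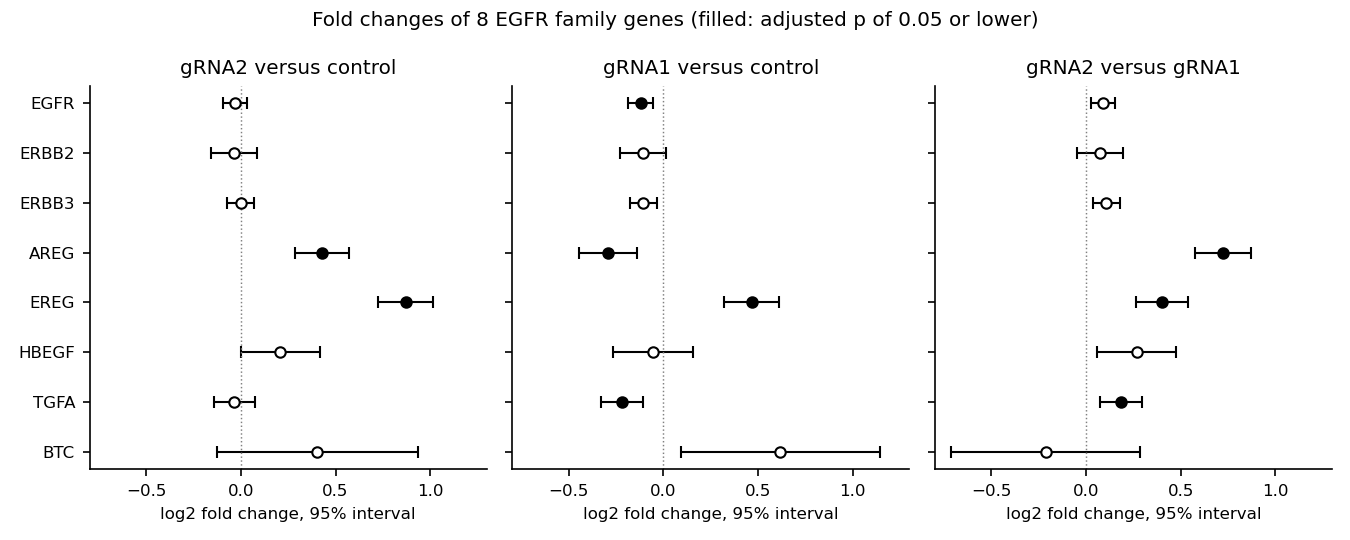
Log2 fold changes (horizontal axes) of 8 EGFR family genes in the 3 comparisons, with 95% intervals; filled points passed an adjusted p of 0.05. EREG lay right of 0 against control with both guides, at 0.87 with gRNA2 and 0.47 with gRNA1, while AREG lay right of it with gRNA2 at 0.43 and left of it with gRNA1 at -0.29.

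The other genes of the family had few or no reads here, apart from NRG1. ERBB4, the remaining receptor, and NRG3 had no reads, and NRG2 had too few to test. NRG1, a neuregulin that binds ERBB3 and ERBB4, was at 21.7 ± 1.37 CPM with gRNA2, 21.1 ± 0.095 CPM with gRNA1 and 22.1 ± 0.556 CPM in control. EGF and NRG4 were also tested, and 0 of the 3 passed in any comparison by edgeR. DESeq2 gave an adjusted p for 1 of the 3 with gRNA2, 2 with gRNA1 and 1 between the guides, and called 0. At an unadjusted p under 0.05, 1 (EGF with gRNA1) passed, and EGF with gRNA1 passed adjustment when no filter on low counts was used (adjusted p = 0.0218). The median log2 fold changes of these genes were -0.02 with gRNA2 and -0.07 with gRNA1. EGF was at 1.60 ± 0.561 CPM with gRNA2, 1.81 ± 0.312 CPM with gRNA1 and 1.00 ± 0.369 CPM in control. None of the 8 tested genes for ligand release, the list that holds ADAM17 and ADAM10, passed in any comparison by edgeR. DESeq2 gave an adjusted p for 7 of the 8 with gRNA2, 8 with gRNA1 and 7 between the guides, and called 0. At an unadjusted p under 0.05, 1 passed with gRNA2, 2 with gRNA1 and 2 between the guides. RHBDF1, which helps ADAM17 mature, was at 1.18-fold with gRNA2 (adjusted p = 0.0595) and passed in 5 of 17 alternatives (adjusted p down to 0.0242). ADAM17 with gRNA1 passed in 1 (protein-coding transcripts alone, 0.0444) and RHBDF2 between the guides in 1 (no filter on low counts, 0.0263). The median log2 fold changes over the 8 genes were -0.03 with gRNA2, -0.07 with gRNA1 and 0.07 for gRNA2 versus gRNA1.

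Downstream of the receptors, 13 genes that restrain them were all tested. With gRNA2 1 rose and 1 fell, where 8.44% of all tested genes were called, and with gRNA1 2 rose and 3 fell, where 7.08% were. Between the guides 3 were higher with gRNA2 and 1 was lower, where 6.22% of all genes were called. The medians were 0.09 with gRNA2, -0.04 with gRNA1 and 0.07 for gRNA2 versus gRNA1 on the log2 scale, beside 0.01, 0.00 and 0.00 for all tested genes. ERRFI1, a feedback inhibitor that binds the kinase domain of EGFR, had 710.4 ± 20.6 CPM with gRNA2, 569 ± 8.28 CPM with gRNA1 and 622 ± 4.97 CPM in control. It rose 1.14-fold with gRNA2 (adjusted p = 0.00197), fell to 0.914-fold with gRNA1 (adjusted p = 0.0225) and was 1.25-fold higher with gRNA2 than with gRNA1 (adjusted p = 3.69e-05), the same order as AREG. Its gRNA1 call ended in 9 of 17 alternatives, with adjusted p up to 0.148, among them leaving out any 1 control (0.0583, 0.119 and 0.0809 without replicates 1, 2 and 3), gRNA1 replicate 2 (0.105) or 3 (0.0577), or gRNA2 replicate 2 (0.0716). A transcript length offset ended its gRNA2 call (adjusted p = 0.0698). NEDD4, a ubiquitin ligase, rose 1.25-fold with gRNA1 (adjusted p = 0.00123), but with protein-coding transcripts alone it was at 0.978-fold. CBL, the ubiquitin ligase that marks active EGFR for degradation, fell to 0.898-fold with gRNA1 (adjusted p = 0.00894; without control replicate 2 0.0676, without gRNA1 replicate 2 0.0535 and with the length offset 0.0658). PTPRJ, a receptor phosphatase, fell with both guides, to 0.896-fold with gRNA2 (adjusted p = 0.00855) and 0.914-fold with gRNA1 (adjusted p = 0.0282). The gRNA1 call of PTPRJ ended in 10 of 17 alternatives. These were without any 1 control or gRNA1 library or without gRNA2 replicate 2 (adjusted p = 0.0702 to 0.119), and 3 others. The others were the length offset (0.177), protein-coding genes alone (0.0581) and protein-coding transcripts alone (0.1025). The gRNA2 call of PTPRJ ended without control replicate 3 (0.0525) or gRNA2 replicate 2 (0.054), or with the length offset (0.0906).

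Among 17 genes that respond to ERK signalling, 16 were tested. The list was chosen with earlier results of these data known. With gRNA2 3 rose and 0 fell, where 3.69% of all tested genes rose and 4.75% fell. With gRNA1 0 rose and 4 fell, where 3.49% of all tested genes rose and 3.58% fell. Between the guides 5 were higher with gRNA2 and 0 were lower, where 3.12% of all tested genes were higher and 3.1% lower. The medians were 0.12, -0.07 and 0.13 on the log2 scale, beside 0.01, 0.00 and 0.00 for all tested genes. At an unadjusted p under 0.05, 1 was lower with gRNA2, 2 were higher with gRNA1 and 0 were lower with gRNA2 than with gRNA1, and DESeq2, which gave an adjusted p for 15, 16 and 14 of the genes in these comparisons, called 0 in each of these directions. EGR1, an immediate early transcription factor, had 103 ± 6.02 CPM with gRNA2, 55.7 ± 1.15 CPM with gRNA1 and 60.5 ± 2.58 CPM in control, and it rose 1.71-fold with gRNA2 (1.58 to 1.83, adjusted p = 1.21e-06). DUSP6, an ERK phosphatase, rose 1.48-fold with gRNA2 (adjusted p = 0.00549). SPRY1, an inhibitor of receptor signalling, fell to 0.705-fold with gRNA1 (adjusted p = 0.00222), and ETV5, an ETS transcription factor, to 0.879-fold (adjusted p = 0.0142). A transcript length offset ended the calls of DUSP6 (adjusted p = 0.181) and SPRY1 (adjusted p = 0.126), and it put ETV5 with gRNA1 at 1.01-fold. The ETV5 call ended without control replicate 2 (adjusted p = 0.0603) or 3 (0.0627), or gRNA1 replicate 1 (0.0657) or 2 (0.0503). Of the 28 adaptors and effectors, 1 passed against control with each guide by edgeR. Of all tested genes, 8.44% passed with gRNA2 and 7.08% with gRNA1. Between the guides 2 of the 28 passed, where 6.22% of all tested genes did. The median log2 fold changes over the 28 genes were -0.038 with gRNA2, -0.043 with gRNA1 and -0.037 for gRNA2 versus gRNA1. PIK3CB, a PI3-kinase subunit, fell to 0.896-fold with gRNA2 (adjusted p = 0.018) and 0.859-fold with gRNA1 (adjusted p = 0.00297). At an unadjusted p under 0.05, 2 were higher and 5 lower with gRNA2, and 2 were higher and 1 lower with gRNA1. MAP2K2, a kinase that activates ERK, was at 0.885-fold with gRNA2 (adjusted p = 0.0901) and passed in 3 of 17 alternatives, DESeq2 among them (adjusted p down to 0.00406). SHC1, an adaptor, was at 1.14-fold with gRNA1 (adjusted p = 0.0844) and passed in 5 of 17 alternatives (adjusted p down to 0.0177). The gRNA2 call of PIK3CB ended without control replicate 2 (0.0913) or 3 (0.0807), or gRNA2 replicate 1 (0.0542) or 2 (0.106), and the length offset ended its calls with gRNA2 (0.725) and gRNA1 (0.22). The adaptors GAB1 (1.21-fold, adjusted p = 0.0117) and GAB2 (1.32-fold, adjusted p = 0.0116) were higher with gRNA2 than with gRNA1. The GAB1 call ended without gRNA1 replicate 1 (0.0542) or gRNA2 replicate 2 (0.0584), or with protein-coding transcripts alone (0.0511). The GAB2 call ended without gRNA1 replicate 2 (0.0696) or with the length offset (0.0983).

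**Figure D5:**
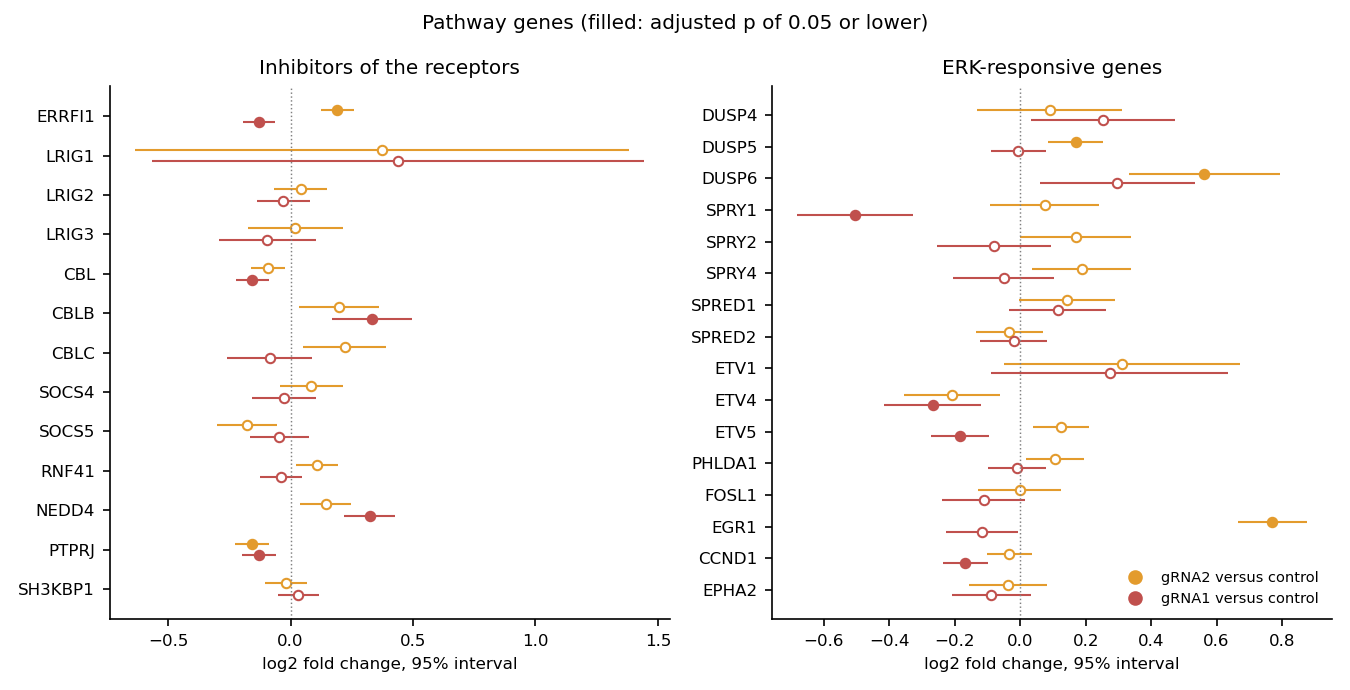
Log2 fold changes (horizontal axes) against control of the tested receptor inhibitors and ERK-responsive genes, with 95% intervals; filled points passed an adjusted p of 0.05. EGR1 lay far to the right with gRNA2 and left of 0 with gRNA1, and the ERRFI1 points fell on opposite sides of 0.

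The genes whose log2 CPM over the 9 libraries was closest to that of a called family gene were found among 14347 genes. For AREG, which varied by 0.30 (root mean square, log2), they were CCN1 at a distance of 0.07, MYC at 0.07 and MUC20 at 0.08. CCN1, a matricellular protein, was at 1.43-fold with gRNA2 and 0.827-fold with gRNA1, and MYC, a growth-promoting transcription factor, was at 1.4-fold with gRNA2 and 0.806-fold with gRNA1. For EREG, which varied by 0.36, the nearest genes were CREB5, OR2A7 and RHOU, each at 0.13. For EGFR, which varied by 0.05, they were LTA4H, UBE2R2 and DERL1, at 0.01, 0.02 and 0.02. For TGFA, which varied by 0.10, they were SQLE, ZBTB43 and DDX47, each at 0.03.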

How the data were processed

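Total RNA was measured in 9 libraries of H1975 cells, grouped by their labels. Reads were quantified with Salmon 1.4.0 on hg38, per the submitters' processing notes. The deposited tables hold an estimated count of reads per transcript and the authors' TPM for it, per the file headers. The strand setting and the annotation are not given in the sources used here.

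GENCODE 29 held 95.7% of the 211939 listed transcripts, and their estimated counts were summed to 56823 genes, then rounded. Unmatched transcripts, with 1.26% to 1.33% of reads, were dropped. TPM was summed by gene, described and not tested. In edgeR 4.0.16 (R 4.3.3), filterByExpr left 19658 genes, TMM scaled the libraries, and two-sided quasi-likelihood F tests compared the groups in 1 fit of all 9 libraries, with Benjamini-Hochberg adjustment over all genes tested and a threshold of 0.05. The biological coefficient of variation was 0.051. Intervals are 95%. CPM uses TMM-scaled libraries. Promoter sequences are from RefSeq (GRCh38.p14). Sums and figures were made in Python 3.11.15 (pandas 2.3.3, matplotlib 3.10.9, numpy 2.4.6).

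The alternatives were RLE scaling, DESeq2 1.42.0, a replicate block, no low-count filter, fits of only the 2 groups compared, transcript length offsets, protein-coding genes alone, protein-coding transcripts alone and leaving out each library. The 9 family genes and the pathway and marker lists were chosen with earlier results of these data known. Genes named are the family genes, the 4 or fewer genes with the lowest adjusted p in a list, tested neighbours on chromosome 4, the 3 genes closest to each called family gene, and the target; not every marker is printed, and ADAM17, ADAM10, NRG1 and EGF are named as examples of their lists, and ERBB4, NRG2, NRG3, NRG4, CXCL2 and MTHFD2L to account for theirs. RHBDF1, RHBDF2, MAP2K2 and SHC1 were named after their values were seen.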

Additional observations from a re-analysis of the deposited data

Results flagged for a closer look

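The effects of the guides against the shared controls differed for 3 ligands, by the test of gRNA2 versus gRNA1 in the edgeR fit. AREG differed by 0.72 on the log2 scale (adjusted p = 3.51e-05), EREG by 0.40 (adjusted p = 0.00179) and TGFA by 0.19 (adjusted p = 0.046), each higher with gRNA2 in all 3 libraries than in any gRNA1 library. The TGFA call ended in 15 of 17 alternatives (adjusted p up to 0.586) and the EREG call in 1, the transcript length offset (0.23). The AREG call ended in 0.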

How the results depend on the processing

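Of the 9 calls in family genes, 4 passed the threshold under all 17 alternatives: EREG with either guide against control, and AREG for gRNA2 versus control and gRNA2 versus gRNA1. None of the 9 calls changed direction. Family genes not called with gRNA2 against control did: over the alternatives the fold ran from 0.970 to 1.05 for EGFR, 0.938 to 1.11 for ERBB2, 0.959 to 1.035 for ERBB3, 0.965 to 1.00 for TGFA and 0.877 to 1.38 for BTC. In the pathway and marker lists, 4 of 35 calls passed under all alternatives: EGR1 for gRNA2 against control and against gRNA1, ERRFI1 between the guides and KRT19 for gRNA2 versus control. The family genes called with gRNA1 against control numbered 4, and 1 with a transcript length offset, 1 with protein-coding transcripts alone and 1 to 4 when a library was left out; with gRNA2 against control they numbered 2 in every alternative, and between the guides 2 or 3. All genes called with a transcript length offset were 434 for gRNA2 versus control, 538 for gRNA1 versus control and 446 for gRNA2 versus gRNA1. With protein-coding transcripts alone they were 856, 629 and 779. Leaving out a library gave 671 to 1817, 654 to 1701 and 575 to 1215, against 1659, 1391 and 1222 with all libraries. The cause was not tested. Among called pathway and marker genes, reversed values were ETV5 with gRNA1 at a log2 change of 0.016 with the length offset, and NEDD4 with protein-coding transcripts alone at -0.033 for gRNA1 versus control and 0.097 for gRNA2 versus gRNA1.

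The labels number replicates alike in each group, but same-numbered libraries correlated between -0.161 and 0.207 in their deviations from group means, so the numbers were not taken as pairs. With the replicate block 1582 genes were called for gRNA2 versus control, 1264 for gRNA1 versus control and 1144 for gRNA2 versus gRNA1, and 2, 4 and 2 family genes. Counting error limits BTC, on 14 to 30 reads a library, and EPGN, on 0 or 1.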
